A study of Mus musculus with 8 samples.

Results

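A set of 467 regions of open chromatin held a peak in every knockout and control library of leukemic progenitors and in neither library of a DEK serine mutant. They were chosen by presence alone. The peak lists of 8 ATAC-seq libraries were merged wherever peaks shared at least 1 bp on the 19 autosomes and X, and a region belonged to the set when it held a peak in all KO and all FL libraries but none in 4S-A 1 or 4S-A 2. The union comprised 138385 regions. All 6 KO and FL libraries shared 34313 of them, of which 33321 were also held by both 4S-A libraries, 525 by 1 of them and 467 (1.36%) by neither. The rule fixes this contrast, so the share is a description and no test of presence was made.

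ATAC-seq reads open chromatin through a transposase that inserts sequencing adapters where DNA is not packed around nucleosomes. Peaks at gene starts mark promoters, and peaks elsewhere often mark enhancers, whose use differs more between cell types. DEK is an abundant chromatin-binding nuclear protein that kinases such as CK2 phosphorylate. The study examined how loss of DEK, or of its phosphorylated serines, alters chromatin in leukemia stem cells.

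The cells were granulocyte-macrophage progenitors that expressed c-Kit, CD34 and CD16/32 but neither lineage markers nor Sca-1, sorted from the bone marrow of mice with leukemia driven by the fusion gene MLL-AF9, which all groups shared. The 4S-A libraries (n = 2) came from mice of genotype Dek-Ser306A/Ser308A/Ser311A/Ser312A, in which alanine replaces 4 serines of DEK, and the labels name no Cre for them. KO 1 and KO 2 were Dek fl/fl with MX1-Cre, a transgene induced by interferon, and KO 3 was Dek fl/fl with Tie2-Cre, which is active in endothelial and blood cells. FL 1 and FL 2 were Dek fl/fl without Cre, whereas FL 3 was Dek+/+. KO 1, KO 2, FL 1 and FL 2 form the Mx1-Cre set. The Tie2-Cre set holds 4S-A 1, 4S-A 2, KO 3 and FL 3, so all mutant libraries belong to 1 set, and FL 3 is its only control. Each set is named after the Cre of its KO libraries, and the labels give that Cre for no other library in it. The names therefore stand for sets of libraries and not for a comparison of Cre lines. The labels give no ages, do not say whether replicates were separate animals, and do not say how the fusion gene was delivered.

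The lists held 104605 and 94725 peaks in the 4S-A libraries, 56245 to 93041 in the KO libraries and 51510 to 91586 in the FL libraries. Read depth is unknown. The regions were therefore absent from the longest lists of the series. A missing peak means that a position did not pass the authors' threshold, and the signal below that threshold was not analysed here. In cells sorted in bulk, fewer cells with an open site and less opening per cell cannot be told apart. Kit, Cd34, Fcgr3 and Fcgr2b, which encode surface markers used in the sort, and the granule genes Mpo and Elane of these progenitors had peaks at a gene end in all 8 libraries. By contrast, Cd3e of T cells had a gene end peak in 1 library and Ms4a1 of B cells in 0. Dek and Pbx3, a HOX cofactor gene named in the study's title, had 1 and 2 regions shared by the 6 KO and FL libraries, and none of these was absent from both 4S-A libraries.

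Most regions of the set lay away from gene starts, so only a few promoters show the sequence that was involved. A transcription start of the RefSeq promoter table (GRCm38.p6, the assembly also called mm10) lay inside 14 of the 467 regions (3.00%). The 250 bases before the start are shown for 4 of these, which run from a window dense in CpG dinucleotides to one with almost none. Nectin3 encodes a cell adhesion protein, C1qb a chain of the complement protein C1q, Rasgrp3 a Ras activator and Cyp11a1 the enzyme that begins steroid synthesis. Capitals mark CpG dinucleotides, and each line reads 5′ to 3′ on the gene's strand.
Nectin3, chr16:46496968-46497217, minus strand: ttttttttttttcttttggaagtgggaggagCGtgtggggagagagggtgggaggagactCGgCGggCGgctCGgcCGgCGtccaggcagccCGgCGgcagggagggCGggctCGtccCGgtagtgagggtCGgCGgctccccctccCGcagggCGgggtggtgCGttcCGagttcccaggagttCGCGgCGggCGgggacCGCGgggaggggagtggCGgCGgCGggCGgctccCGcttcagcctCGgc
C1qb, chr4:136886201-136886450, minus strand: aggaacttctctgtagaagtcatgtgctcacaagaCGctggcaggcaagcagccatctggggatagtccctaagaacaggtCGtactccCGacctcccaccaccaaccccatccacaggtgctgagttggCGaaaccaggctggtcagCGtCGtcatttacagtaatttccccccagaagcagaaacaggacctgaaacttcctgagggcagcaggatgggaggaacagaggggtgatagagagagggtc
Rasgrp3, chr17:75465288-75465537, plus strand: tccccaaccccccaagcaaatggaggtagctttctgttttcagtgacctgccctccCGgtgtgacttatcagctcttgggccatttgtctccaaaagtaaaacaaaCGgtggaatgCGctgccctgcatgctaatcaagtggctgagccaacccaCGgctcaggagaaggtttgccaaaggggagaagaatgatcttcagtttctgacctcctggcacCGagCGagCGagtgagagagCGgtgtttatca
Cyp11a1, chr9:58014702-58014951, plus strand: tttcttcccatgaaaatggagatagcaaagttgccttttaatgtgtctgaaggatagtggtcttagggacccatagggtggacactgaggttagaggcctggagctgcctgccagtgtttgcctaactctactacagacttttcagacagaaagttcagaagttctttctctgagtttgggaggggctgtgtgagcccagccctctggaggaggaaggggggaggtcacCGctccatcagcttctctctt

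The Nectin3 window held 30 CpG dinucleotides, the C1qb window 6, the Rasgrp3 window 8 and the Cyp11a1 window 1, and the median over the 32585 windows of the table was 6. Their GC content was 73.2%, 55.2%, 52.8% and 50.4%, against a median of 52.4%. The windows were searched on both strands for the letters TGANTCA of AP-1, GAGGAAGT of PU.1, TGATTGAT of PBX, TGACAG of MEIS, AGATAA of GATA factors, CACGTG of the E-box and TTGCGCAA of C/EBP. The 4 windows held none of them, but 3 of the 15 windows at start sites inside the set held TGACAG, 1 of Ppfia4 and 2 of LOC108167368. The 2 windows of LOC108167368 overlap almost fully and hold the same site, which was thus counted in both. No other motif was found in the 15. Among all windows of the table, TGACAG occurred in 15.6%, AGATAA in 10.0%, TGANTCA in 6.78%, CACGTG in 6.06%, GAGGAAGT in 2.46%, TGATTGAT in 0.675% and TTGCGCAA in 0.166%. The other promoters covered were those of Dsel, Peg12, Ubxn10, Ppfia4, Cldn11, Cspg4b and 4 predicted genes. The table had an entry for 79.9% of protein-coding genes and none on chromosome 18.

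Peaks of the set were of low to middle strength. Strength is given as the percentile of the −log10 q that the authors deposited, so that each peak was placed among the peaks of the same library and higher values mean stronger peaks. Values of the 3 KO libraries, and of the 3 FL libraries, are listed in order of library number. The median over the 467 regions was 46.7, 63.6 and 28.4 in the 3 KO libraries, and 37.8, 44.8 and 38.9 in the 3 FL libraries. The 33321 regions held by all 8 libraries had medians of 69.3, 76.7 and 81.2 in the 3 KO libraries, and 66.3, 68.5 and 81.2 in the 3 FL libraries. Every library therefore ranked the set below the regions of all 8 libraries. The mean percentile over the 6 libraries had a median of 41.8 (quartiles 32.99 and 51.1) in the set and 71.9 (56.5 and 86.3) in the regions of all 8. Fold enrichment at the summit, as the authors deposited it, had medians of 5.03 to 8.01 in the set and 7.28 to 9.90 in the regions of all 8 over the same libraries.

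**Figure D1:**
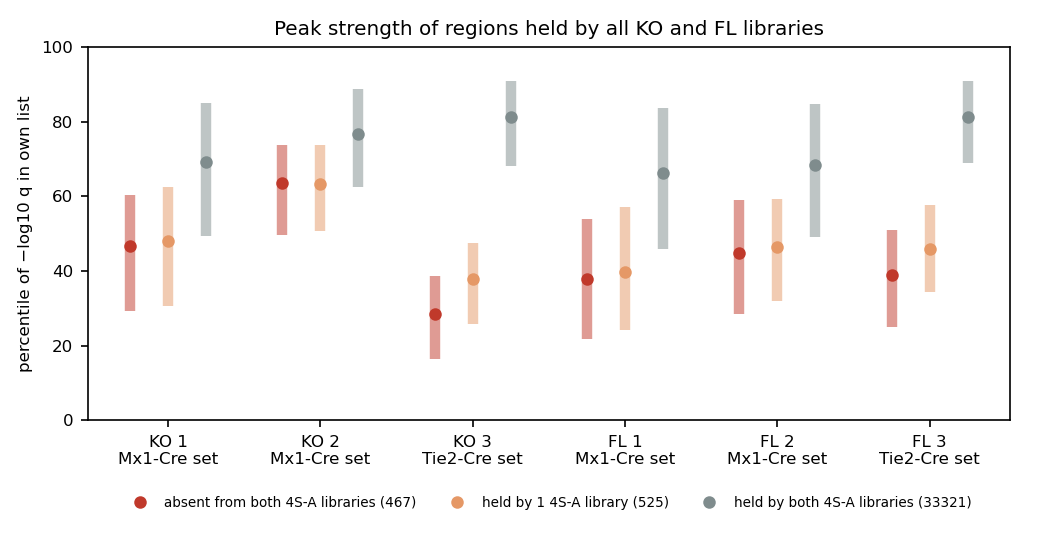
Percentile of −log10 q within each library's own list (vertical axis) in the 3 KO and the 3 FL libraries, for the 3 classes of regions shared by these 6 libraries; points are medians and bars run from the first to the third quartile. The regions absent from both 4S-A libraries lie lowest in KO 3, with a median of 28.4, against 81.2 for regions of all 8 libraries.

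The share of regions absent from both 4S-A libraries fell with strength. Between mean percentiles of 20 and 30 it was 13.7% (76 of 554, exact Clopper-Pearson 95% interval 11.0 to 16.9%), and between 40 and 50 it was 3.83% (140 of 3654, 3.23 to 4.51%). From 70 to 80 it was 0.176% (10 of 5683, 0.0844 to 0.323%). Between 80 and 90 there was 1 of 6006, and above 90 there were 0 of 6060, which allows a share of up to 0.0495%. Regions under a mean percentile of 50 made up 73.2% of the set. These intervals cover counting error only, and neighbouring regions are not independent.

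**Figure D2:**
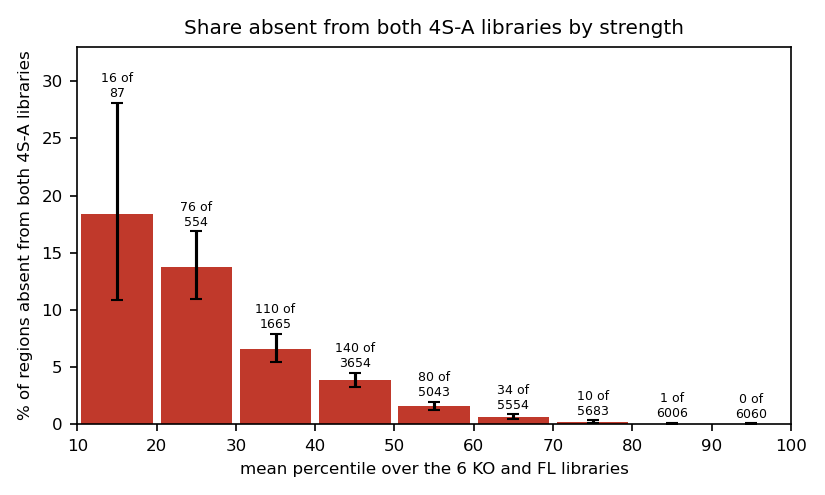
Share of regions absent from both 4S-A libraries (vertical axis, percent) by mean percentile over the 6 KO and FL libraries (horizontal axis); bars are the share, error bars exact Clopper-Pearson 95% intervals, and the lowest class, with 7 regions, is left out. The share is 13.7% between 20 and 30 and 0.176% between 70 and 80.

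The edge of the rule can be described from the regions around it. Of the 525 regions held by 1 mutant library, 393 were held by 4S-A 1 only and 132 by 4S-A 2 only. Their median percentile there was 18.0 in 4S-A 1 and 14.9 in 4S-A 2, while the regions of all 8 libraries stood at 82.6 and 80.8. The regions closest to the set were nearest to Cyp2s1, Slc16a9 and Klk15, with percentiles of 0.0249, 0.125 and 0.125 in the only mutant library that held them. The farthest was nearest to Npm2, at 61.2. The weakest regions inside the set were nearest to Cd24a, Hs2st1 and Itgav, with mean percentiles of 11.97, 12.5 and 14.6. Without 4S-A 1 the rule gave 860 regions, and leaving out any other library in turn gave 472 to 636.

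The regions absent only from 4S-A ranked lower in KO 3 and FL 3 than in the 4 libraries of the Mx1-Cre set. The mean percentile of KO 3 and FL 3 had a median of 32.8, against 47.0 for KO 1, KO 2, FL 1 and FL 2, and it was the lower of the pair in 394 of 467 regions (84.4%). Among the regions of all 8 libraries the order was the other way, with 80.9 in the Tie2-Cre set and 68.6 in the Mx1-Cre set, and 17.9% ranked lower in the Tie2-Cre set. KO 3 and FL 3 both stood below all 4 libraries of the Mx1-Cre set in 129 of the 467 regions (27.6%) and in 5.30% of the regions of all 8. The mutant libraries belong to the Tie2-Cre set, so the set of libraries moves with the absence, and its part in the result was not tested. The regions of KO 3 and FL 3 alone numbered 76644, of which 3954 (5.16%) were missing from both 4S-A libraries. All 4 libraries of the Mx1-Cre set held 467 of these, and none of the 4 held 1799 (45.5%).

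**Figure D3:**
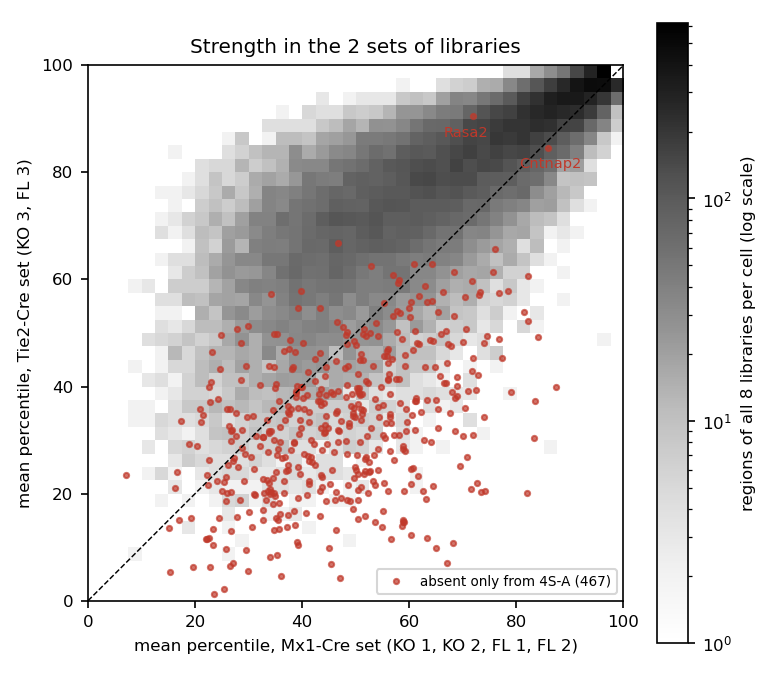
Mean percentile in KO 3 and FL 3 (vertical axis) against mean percentile in KO 1, KO 2, FL 1 and FL 2 (horizontal axis); red points are the 467 regions absent only from 4S-A, grey cells count regions of all 8 libraries on a log scale, and the dashed line marks equal ranks. Most red points, 394 of 467, lie below the line, and Rasa2 and Cntnap2 alone pass 80 on the vertical axis.

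Regions inside Rasa2 and Cntnap2 ranked highest of the set in KO 3 and FL 3, with means of 90.6 and 84.6, followed by a region near Etnk1 at 66.9. In the Mx1-Cre set Cntnap2 averaged 85.9 and Rasa2 71.9, and the region near Trpa1 was higher than both at 87.5. Cntnap2 encodes a neurexin family protein of neurons. The region inside it (mm10, chromosome 6, 45271440 to 45272038) had no peak in 4S-A 1 or 4S-A 2, percentiles of 91.9, 91.9 and 79.3 in the 3 KO libraries, and 83.3, 76.5 and 89.9 in the 3 FL libraries. All 6 values were high, the KO and FL ranges overlapped, and it was the only member whose every percentile reached 75, a level that 10159 of the 34313 regions reached. A second, weaker region of Cntnap2 (45273325 to 45273620) was also absent from both 4S-A libraries, with percentiles of 35.3, 37.6 and 17.5 in the 3 KO libraries, no peak in FL 1, and 33.8 and 37.8 in FL 2 and FL 3. The nearest 4S-A peak lay 725980 bp from the first region.

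Rasa2 encodes a GTPase-activating protein that turns Ras off. Its region (chromosome 9, 96544046 to 96544574) had no 4S-A peak and percentiles of 72.2, 83.0 and 91.2 in the 3 KO libraries and 65.4, 67.2 and 90.0 in the 3 FL libraries. The values of KO 3 and FL 3 were above all 4 values of the Mx1-Cre set. The same gene had 6 further regions shared by the 6 libraries, and both 4S-A libraries held all 6. A neighbouring region (96535357 to 96537288) had percentiles of 57.9 and 50.1 in 4S-A 1 and 4S-A 2, 16.4, 14.0 and 60.01 in the 3 KO libraries, no peak in FL 1 or FL 2, and 48.8 in FL 3.

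**Figure D4:**
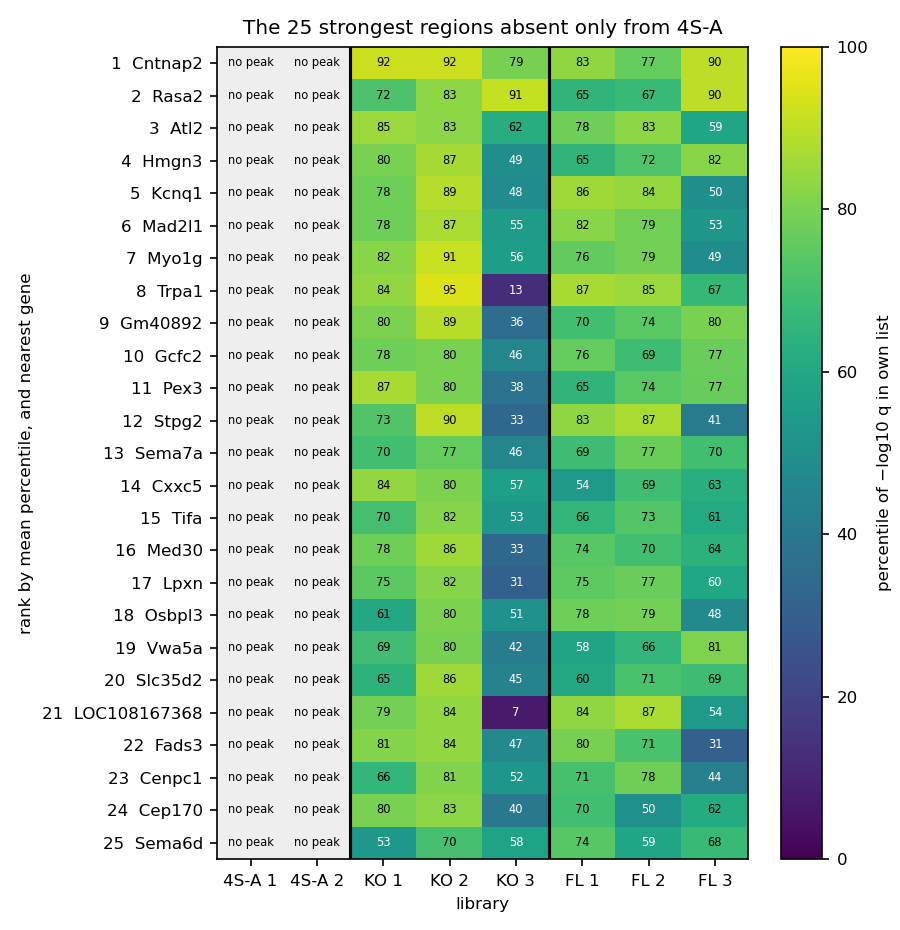
Percentile of −log10 q in each library (columns, color and printed number) for the 25 strongest regions absent only from 4S-A (rows, with rank and nearest gene); grey cells have no peak. KO 3 stands at 13.2 at Trpa1 and at 91.2 at Rasa2, the gene with the highest value in that column.

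The next strongest regions came from genes of varied roles. Near Atl2, a gene for a GTPase that shapes the endoplasmic reticulum, percentiles were 85.0, 82.7 and 62.1 in the 3 KO libraries and 78.1, 83.2 and 59.3 in the 3 FL libraries. The Atl2 region (chromosome 17, 79927153 to 79927660) lay 438 bp from a region held by all 8 libraries, which reached 79.4 and 71.1 in 4S-A 1 and 4S-A 2. The absence there was local, and the values of KO 3 and FL 3 were below those of the Mx1-Cre set. Hmgn3 encodes a nucleosome-binding protein, and a region at its gene end (chromosome 9, 83145659 to 83146828) had percentiles of 80.03, 86.7 and 49.3 in the 3 KO libraries and 65.4, 72.3 and 82.2 in the 3 FL libraries. The nearest start site of the promoter table lay 35526 bp from the summit, so this gene end was not a start in that table. No other region of the 6 libraries was nearest to Hmgn3, and the nearest 4S-A peak lay 161965 bp away.

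Regions inside Kcnq1 and near Myo1g followed, with further named genes after them. The region near Myo1g, which encodes a myosin of blood cells, had percentiles of 82.0, 91.5 and 55.7 in the 3 KO libraries and 75.8, 79.2 and 48.8 in the 3 FL libraries. Inside Kcnq1, a potassium channel gene of the Cdkn1c imprinted cluster, they were 77.8, 88.7 and 48.4 in the 3 KO libraries and 85.6, 84.4 and 50.0 in the 3 FL libraries. At both genes KO 3 and FL 3 were the lowest, and KO and FL overlapped. The remaining named regions of this group had mean percentiles of 71.6 to 65.9. They were nearest to the ion channel gene Trpa1, the peroxisome gene Pex3, the semaphorin gene Sema7a, the zinc finger gene Cxxc5, Tifa of NF-kB signalling, Lpxn for the adaptor leupaxin of blood cells, the oxysterol-binding gene Osbpl3, Vwa5a and the nucleotide sugar transporter gene Slc35d2. At Trpa1, KO 3 stood at 13.2 and the other 5 libraries at 66.7 to 94.6.

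With every list cut to the 51510 strongest peaks, the length of the shortest, 44 of the 467 regions (9.42%) still met the rule. The cut leaves out peaks below percentiles of 44.6 in KO 3 and 43.8 in FL 3, and many members rank below these. The 44 included 13 of the 20 strongest members, Cntnap2, Rasa2, Atl2, Hmgn3, Kcnq1 and Myo1g among them. Their mean percentiles had medians of 55.8 in the Tie2-Cre set and 61.3 in the Mx1-Cre set. The cut itself required ranks above 44.6 in KO 3 and 43.8 in FL 3, so it raised the Tie2-Cre median by construction. Others of the 44 lay inside Sema6d, Esr1, the p38 kinase gene Mapk14 and the histone deacetylase gene Hdac9, or near the Notch ligand gene Dll4 and the cytokine gene Il12a. These last genes were chosen after their values were seen. In all, 1097 regions met the rule in the cut lists. The cut also leaves out 4S-A peaks below percentiles of 50.8 in 4S-A 1 and 45.6 in 4S-A 2. A region can therefore meet the rule there although a full 4S-A list holds a peak in it.

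Positions relative to genes were not used by the rule. The summit lay within 1 kb of either end of a protein-coding gene in 19 of 467 regions (4.07%, exact Clopper-Pearson interval 2.47 to 6.28%), against 30.0% of regions of all 8 libraries and 16.9% after weighting these to the strength classes of the set. Further inside a gene lay 51.8% of the set, against 38.0% of regions of all 8, or 45.2% after weighting. Regions over 100 kb from any protein-coding gene were 10.1% (7.49 to 13.2%), against 3.67%, or 4.36% after weighting. Some of them lay close to a start site of the promoter table, at 1176 bp for the region nearest to Enc1 and 1656 bp for that nearest to Gcfc2. Genes of 300 kb or more held 37 regions (7.92%), against 4.17%, or 5.39% after weighting. Thus gene ends were less frequent in the set than in equally strong regions of all 8 libraries, beyond counting error. Positions over 100 kb from a protein-coding gene were more frequent, also beyond counting error. No test over libraries was possible.

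Regions of the set were also narrow. Their median width was 456 bp, against 876 bp in regions of all 8 libraries and 684 bp after weighting to the same strength classes. A union region of fewer peaks is narrower by construction, so part of this follows from the absence of 2 lists. Summits of the 6 libraries lay within 100 bp of each other in 73.9% of the set and in 79.8% of the regions of all 8. The peaks of the 6 libraries therefore mostly marked the same position.

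Gene end regions, at either end of a gene, were led by Hmgn3 and Cxxc5. The Cxxc5 region (chromosome 18, 35828399 to 35828922) had no 4S-A peak and percentiles of 84.0, 80.3 and 56.8 in the 3 KO libraries and 53.6, 69.4 and 62.7 in the 3 FL libraries. Others lay at the uncharacterised locus LOC108167368 and at Slc34a3 and Fgf23, a phosphate transporter gene and a phosphate hormone gene, with mean percentiles of 65.7, 55.3 and 49.0. Tmsb10 for an actin-binding peptide had 46.9, C1qb 41.1, the p53 target Bbc3 for the apoptosis protein PUMA 40.5, the dermatan sulfate gene Dsel 38.2 and the synaptotagmin gene Syt2 32.8.

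The C1qb region differed most between KO and FL among regions of the set whose groups did not overlap. Its summit lay 78 bp from the gene end (chromosome 4, 136885991 to 136886525), with the promoter window shown above inside it. It had no 4S-A peak, percentiles of 79.97, 88.4 and 35.8 in the 3 KO libraries, and 17.1, 18.5 and 6.6 in the 3 FL libraries. KO libraries ranked it higher in both sets of libraries. Every KO percentile was above every FL percentile in 16 of 467 regions (3.43%), against 3.86% of the 34313 regions. The reverse held in 9 regions (1.93%), against 0.965%. The first share is near the background, and C1qb was singled out after its values were seen. Both regions inside Epb41l3, a gene for a membrane skeleton protein, were among the 16, as was a weak region near Ccnd1, the cyclin D1 gene. Dsel was among the 9, with 4.0, 12.5 and 35.8 in the 3 KO libraries and 69.6, 71.1 and 36.3 in the 3 FL libraries. Since lists differ in length, these ranks describe order within a list and not a change in signal.

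Regions of the set were spread over all chromosomes analysed. Their share of the regions of the 6 libraries ranged from 0.334% on X (2 of 599) and 0.713% on chromosome 8 (13 of 1824) to 1.99% on chromosome 6 (36 of 1811) and 2.03% on chromosome 3 (32 of 1576). At the overall share of their strength classes, 6.75, 23.0, 27.1 and 23.6 would be counted on these chromosomes. The nearest 4S-A peak lay at a median of 3666 bp, and within 1000 bp in 68 of 467 regions (14.6%). The nearest other peak of KO 3 and of FL 3 lay at medians of 3698 and 3159 bp. Regions found in both 4S-A libraries and in none of the other 6 lay within 10000 bp of 36 members. The distance to the nearest 4S-A peak drew on both 4S-A lists together, and the KO 3 and FL 3 distances on 1 list each. More peaks give shorter distances, so these medians are not comparable.

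Some members lay near each other. The next region shared by the 6 libraries on either side of each member was counted. This gave 934 positions, with some regions counted more than once. Of these positions, 840 (89.9%) were held by both 4S-A libraries, against 97.1% of all shared regions, and 58 were themselves members. Adjacent members count each other in these 58. These shares were not weighted for strength, and 5.73% of regions under a mean percentile of 50 were members. Whether members cluster beyond what strength gives was not tested. Chaining members less than 100 kb apart gave 427 loci, of which 394 held 1 member, 27 held 2 and 6 held 3 or more. Of the 33 loci with several members, 16 had no 4S-A peak between their first and last member. The rule fixes the members themselves as empty in 4S-A, and some of these loci hold little else. At Arfgef2 (1193 bp) and Hepacam2 (2738 bp) every KO and FL library had only the 2 peaks of the members. At Inpp4b these libraries had 3 to 7 peaks. Loci with 3 or more members numbered 15 without 4S-A 1, 11 without KO 1 and 10 without KO 3, and they numbered 2 with a gap of 50 kb and 15 with a gap of 500 kb.

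The locus with the most members was Bach2, which encodes a transcriptional repressor of lymphoid and myeloid fate. Over 164514 bp (chromosome 4, 32179505 to 32344018), 4 of 6 regions shared by the KO and FL libraries were absent from both 4S-A libraries. The locus held 7 and 6 peaks in 4S-A 1 and 4S-A 2, 11, 16 and 13 in the 3 KO libraries, and 10, 11 and 15 in the 3 FL libraries. The rule fixes the 4 members as missing from 4S-A and present elsewhere. Outside them the locus held 7 and 6 peaks in 4S-A 1 and 4S-A 2, 7, 12 and 9 in the 3 KO libraries, and 6, 7 and 11 in the 3 FL libraries, so the 4S-A counts overlapped the others. The strongest of the 4 (32343036 to 32344018) had percentiles of 35.9, 72.9 and 40.1 in the 3 KO libraries and 61.8, 71.9 and 53.7 in the 3 FL libraries. Over the whole gene, 4 of 13 shared regions were absent (30.8%) and 7 were held by both 4S-A libraries.

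Stretches near Triqk and between Tln2 and Tpm1 had no 4S-A peak at all. Near Triqk (chromosome 4, 13210797 to 13282156), at least 229496 bp outside the gene, 3 of 3 shared regions were absent from the mutant libraries. This stretch held 3, 5 and 5 peaks in the 3 KO libraries, and 3, 3 and 6 in the 3 FL libraries, of which 0, 2 and 2 in the KO libraries and 0, 0 and 3 in the FL libraries lay outside the 3 members. Its strongest region (13217605 to 13218214) had percentiles of 50.8, 73.4 and 60.4 in the 3 KO libraries and 76.7, 64.3 and 54.9 in the 3 FL libraries. Near Tln2, which encodes a talin, and Tpm1, a tropomyosin gene, 3 of 3 shared regions were absent (chromosome 9, 67105886 to 67171223). It held 4, 5 and 3 peaks in the 3 KO libraries and 3, 4 and 3 in the 3 FL libraries, of which 1, 2 and 0 in the KO libraries and 0, 1 and 0 in the FL libraries lay outside the members. The contrast in both stretches was thus mostly set by the rule. Peaks of the members near Tln2 and Tpm1 were weak in the Tie2-Cre set, at 10.0 to 25.7 in KO 3 and 9.84 to 43.7 in FL 3.

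**Figure D5:**
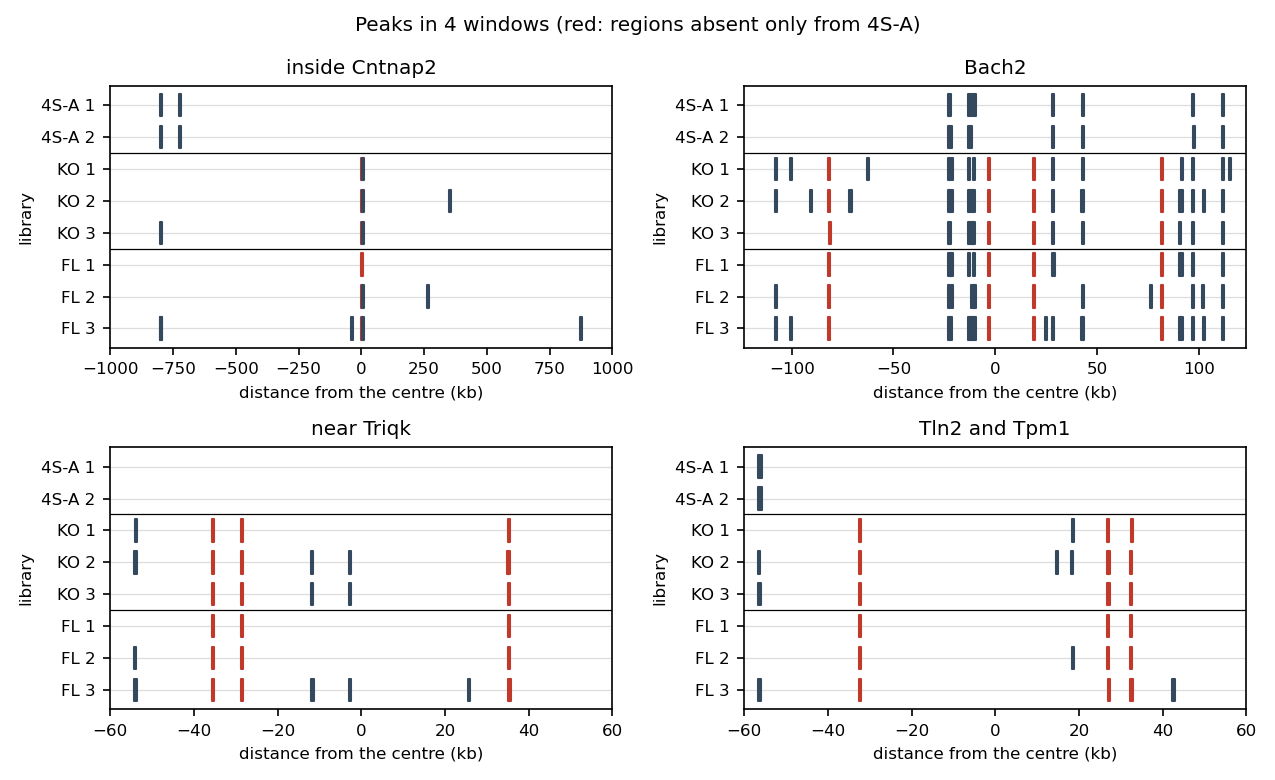
Peaks of each library (rows) by distance in kb from the centre of a window (horizontal axis) at Cntnap2, Bach2, near Triqk and at Tln2 and Tpm1; red marks are regions absent only from 4S-A, dark marks other peaks, and narrow peaks are widened to be visible. The Triqk window of 120 kb holds no peak in either 4S-A library and 3 to 7 in each of the other libraries, and 0 to 4 of these peaks lie outside the 3 members that the rule fixes.

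Loci of 3 members at Cxxc5 and Tnfsf15 did hold 4S-A peaks. At Cxxc5, 3 of 3 were absent, yet 4 peaks of each 4S-A library lay within the locus. At Tnfsf15, the gene of a TNF family cytokine, 3 of 4 were absent. By nearest gene, 390 genes had a member within 100 kb, of 13479 with any shared region, and 5 had 3 or more. After Bach2 came Hivep2, a zinc finger gene, with 4 of 16 regions, Nfatc2 of T cell signalling with 3 of 13, Cxxc5 with 3 of 9 and Tnfsf15 with 3 of 6. Hivep2 and Nfatc2 kept 11 and 10 of their regions in both 4S-A libraries. Inpp4b, Calml3 and Epb41l3 each had 2 shared regions, and all of these were absent.

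Lists of genes relevant to this leukemia held members at shares whose intervals all included the 1.36% of all shared regions. The MLL-AF9 leukemia program had 3 of 165 shared regions (1.82%, exact Clopper-Pearson interval 0.377 to 5.22%), against 1.36% of all shared regions. In this list were 2 regions inside Mecom, which encodes the stem cell factor EVI1, and 1 inside Zeb2. The stronger Mecom region (chromosome 3, 30091727 to 30092725) had percentiles of 60.3, 59.5 and 7.0 in the 3 KO libraries and 51.9, 51.9 and 86.3 in the 3 FL libraries. There KO 3 was the lowest and FL 3 the highest. Hox, Meis and Pbx genes had 0 of 32, which allows a share of up to 9.38%. Granulocyte genes had 0 of 43 (up to 6.98%), and erythroid and megakaryocyte genes 0 of 33 (up to 9.09%). Each of these upper limits lies above the background share, so a deficit was not detectable.

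Ras-MAPK and JAK-STAT signalling had 3 of 135 (2.22%, 0.461 to 6.36%), among them the Rasa2 region and one inside Nf1, whose protein also turns Ras off. Mean percentiles of these were 78.2 at Rasa2 and 41.2 at Nf1. Chromatin factors and DEK partners had 1 of 86, inside Mllt3, the gene that encodes the AF9 part of the fusion, with percentiles of 30.6, 52.8 and 35.8 in the 3 KO libraries and 34.4, 34.4 and 50.9 in the 3 FL libraries. Stem and progenitor cell genes had 1 of 111 (near Thy1), monocyte and macrophage genes 1 of 75 (near Irf8, a monocyte fate factor), and cell cycle genes 1 of 93 (near Ccnd1). Lymphocyte genes had 1 of 26 (inside Il7r, the interleukin-7 receptor), and endothelial and stromal genes 1 of 40 (near Cxcl12, a chemokine of the marrow niche). All of these shares had intervals that included 1.36%.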

How the data were processed

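ATAC-seq was made from sorted cells, with PCR amplification, per the labels' protocols. The submitters' processing notes name MACS2, featureCounts, Picard, Bowtie2 (2.2.9), Trim Galore (0.4.4) and the mouse build mm10. Their roles, order and parameters are not given in the sources used here. The authors deposited 1 narrowPeak list per library. The score in the authors' lists was within 1 of 10 times the −log10 q for every peak. The authors deposited a fold enrichment at the summit too, a ratio. The authors also deposited the −log10 p, the −log10 q, whose lowest value was 1.30 to 1.41, and the summit position. No scaling between libraries is stated and read depth is unknown, so values were only ranked within a list.

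Lists were merged with Python 3.11.15 and pandas 2.3.3. Presence fixed the set, so no p was computed. Where a library had several peaks in a region, the strongest was used. The region's position was the median summit of the 6 KO and FL libraries. The nearest protein-coding gene came from GRCm38.p6 gene spans, the shorter where genes overlap, and gene ends were taken within 1 kb without strand. Weighted shares give the regions of all 8 libraries the set's 10-point strength classes. Shares carry exact Clopper-Pearson intervals computed with scipy 1.17.1, and a count of 0 was read as up to 3 counts. Named genes were the nearest genes within 100 kb of the 15 strongest members that have one and of the 10 strongest at gene ends, 1 region per gene and without genes named Gm or Rik, genes and loci with 3 or more members, up to 3 per gene list, and Dek and Pbx3. The 289 entries of the 11 gene lists and the members were chosen with earlier results of these data known. The rule recovered 200 of 200 absent regions planted in simulated lists. Those lists had no peak threshold or weak signal, so this checks the code and not the rule on real lists. Alternatives were equal-length lists, stricter q, other overlap criteria, other distances, each library left out, and the Tie2-Cre set alone. Sequences outside the promoter table were not used here. Some genes that the naming rule selects are not reported here.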

Additional observations from a re-analysis of the deposited data

Results flagged for a closer look

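The order of KO and FL at the 467 regions absent only from 4S-A was opposite in the 2 sets of libraries. In the Tie2-Cre set the median percentile was 28.4 in KO 3 and 38.9 in FL 3, a KO minus FL difference of −10.5 percentiles. In the Mx1-Cre set both KO medians (46.7 and 63.6) lay above FL 1 at 37.8 and FL 2 at 44.8, a mean difference of 13.9. Regions of all 8 libraries had the same order there, at 69.3 and 76.7 in KO 1 and KO 2 and 66.3 and 68.5 in FL 1 and FL 2. KO 1 and KO 2 both ranked above FL 1 and FL 2 in 196 of 467 regions (42.0%), against 36.2% of regions of all 8, which is near the background. KO 3 ranked the region above FL 3 in 143 of 467 regions (30.6%), against 48.8% of regions of all 8 libraries. The difference between the sets was not tested, since the Tie2-Cre set has 1 library of each kind.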

How the results depend on the processing

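The count of 467 regions stayed within 1.5 times under a −log10 q of at least 2 (469) or 5 (438) and with summits within 250 bp (553). Of the regions found at a −log10 q of 5 or more, 357 overlapped a reported one. The planned 50% overlap criterion changes nothing by construction, since a union region covers each of its peaks, and a peak covering 50% of the region, chosen after seeing the data, gave 389. Equal-length lists gave 1097 regions, a median strength of 56.4, a gene end share of 7.93% and 19 loci of 3 or more members. The reported values were 41.8, 4.07% and 6, and 44 of the reported regions were among the 1097. The cut to equal length also removes weaker 4S-A peaks, so the others can hold a peak in a full 4S-A list. The Tie2-Cre set alone, merged on its own, gave 3959 regions with a median strength of 20.9 and 280 loci. Leaving out each library in turn gave 472 to 860 regions (860 without 4S-A 1), median strengths of 38.0 to 43.3, gene end shares of 3.66 to 6.16% and 6 to 15 loci. The gene end share was 7.59% with the summit criterion and 10.3% within 2 kb of a gene end, and start sites within 1 kb, also chosen after seeing the data, gave 5.09%. Loci numbered 2 with a gap of 50 kb and 15 with a gap of 500 kb. Fewer libraries to satisfy enlarge the set by construction. Other causes were not tested. No paired analysis was possible because no result comes from a test. Read depth could not be assessed beyond the number of peaks per list, and absence below the peak threshold cannot be told from weak signal.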
